A study of Mus musculus with 4 samples.

Results

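A pair of 1 Mb windows of the mouse genome, chromosome 16 from 43 to 44 Mb and chromosome 11 from 36 to 37 Mb (mm9), held unusually many ChIP-seq peaks in growth-arrested fibroblasts and were not among the densest in proliferating ones. The members are the peaks whose start lies in these windows. They numbered 699 of 699290 peaks in the arrested list and 92 of 109740 in the proliferating list. The windows were chosen by their number of arrested peaks, as among the 5 densest windows of that list and not among the 5 densest of the proliferating list. Their numbers, and the widths, spacings and scores that come from the same lists, are therefore given as a description without a test. The peaks were recovered with antibodies to pRb from primary embryonic fibroblasts of the C57BL/6 strain, taken at E13.5 (mid-gestation), used at passage 4 and fixed with a protein cross-linker and formaldehyde. The proliferating group grew asynchronously in 10% serum, and the arrested group was held in 0.1% serum for 72 hours. Each group had 1 library, and both carry the label KO. No label names the gene that was removed or says whether these cells contained pRb, so peaks are described as calls and not as sites that pRb occupied. If pRb was absent, the peaks describe chromatin recovered without it. Several pRb antibodies are listed, and whether they were mixed is not stated.

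pRb, the retinoblastoma protein, binds E2F transcription factors at the promoters of cell cycle genes and holds them silent in resting cells; phosphorylation during growth releases it. It also works with chromatin regulators, and the series title places it in the silencing of endogenous retroelements, virus-like repeats spread through the genome. Withdrawal of serum takes fibroblasts out of the cell cycle into a reversible arrest. In ChIP-seq a peak marks a place where sequenced fragments pile up over the local level, and a peak caller also returns peaks from uneven background.

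The lists differ in size and scale. The arrested list was 6.37 times as long as the proliferating one, and its median deposited score was 97.5 against 24.3, on a scale that no source used here defines. Scores were therefore compared only within a list. A 1 Mb window held a median of 276 arrested peaks (quartiles 261 and 290 over 2584 windows) and 43 proliferating peaks (quartiles 36 and 50 over 2582 windows).

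On chromosome 16 the window held 352 arrested peaks. Its 10 flanking windows, 5 Mb on each side, held from 251 to 319 with a median of 289, so each was below it. The mean of the flanks was 289 ± 19.3 (SD, n = 10 windows), which puts the window at 1.22 times its surroundings and 3.27 SDs above them. On chromosome 11 the window held 347 arrested peaks, and its flanking windows held from 240 to 321 with a median of 291.5. Their mean was 284 ± 29.5 (SD, n = 10 windows), a ratio of 1.22 and a distance of 2.13 SDs. The chromosome 11 surroundings were thus the more uneven of the pair: the window 3 Mb further on reached 321 and the next one fell to 240. Flanking windows are stretches of 1 library and not replicates, so these SDs describe variation along the chromosome.

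In proliferating cells both windows lay within the range of their flanks. The chromosome 16 window held 49 proliferating peaks, and its flanks held from 26 to 56 with a median of 43.5 and a mean of 42.2 ± 7.67 (SD, n = 10 windows). It exceeded 9 of the 10 flanking windows, at 1.16 times their mean (95% interval 0.865 to 1.56, for counting error only), and ranked 677 of 2582 windows. The chromosome 11 window held 43 proliferating peaks, the median of the whole list, against flanks of 30 to 55 with a mean of 41.9 ± 9.28 (SD, n = 10 windows), a ratio of 1.03 (interval 0.751 to 1.403). The flanks of chromosome 11 differed by side. The 5 windows to its left averaged 49.6 ± 6.15 proliferating peaks and the 5 to its right 34.2 ± 2.77, without overlap of their ranges (40 to 55 and 30 to 37). In arrested cells the same sides averaged 273 ± 24.8 and 295 ± 32.1, with overlapping ranges. For each proliferating peak there were 7.18 arrested peaks in the chromosome 16 window and 6.85 in its flanks, and 8.07 in the chromosome 11 window and 6.78 in its flanks. The intervals of both proliferating ratios contain 1 as well as the arrested ratios of 1.22, so at these counts it was not detectable whether the windows are denser in arrested cells alone.

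**Figure D1:**
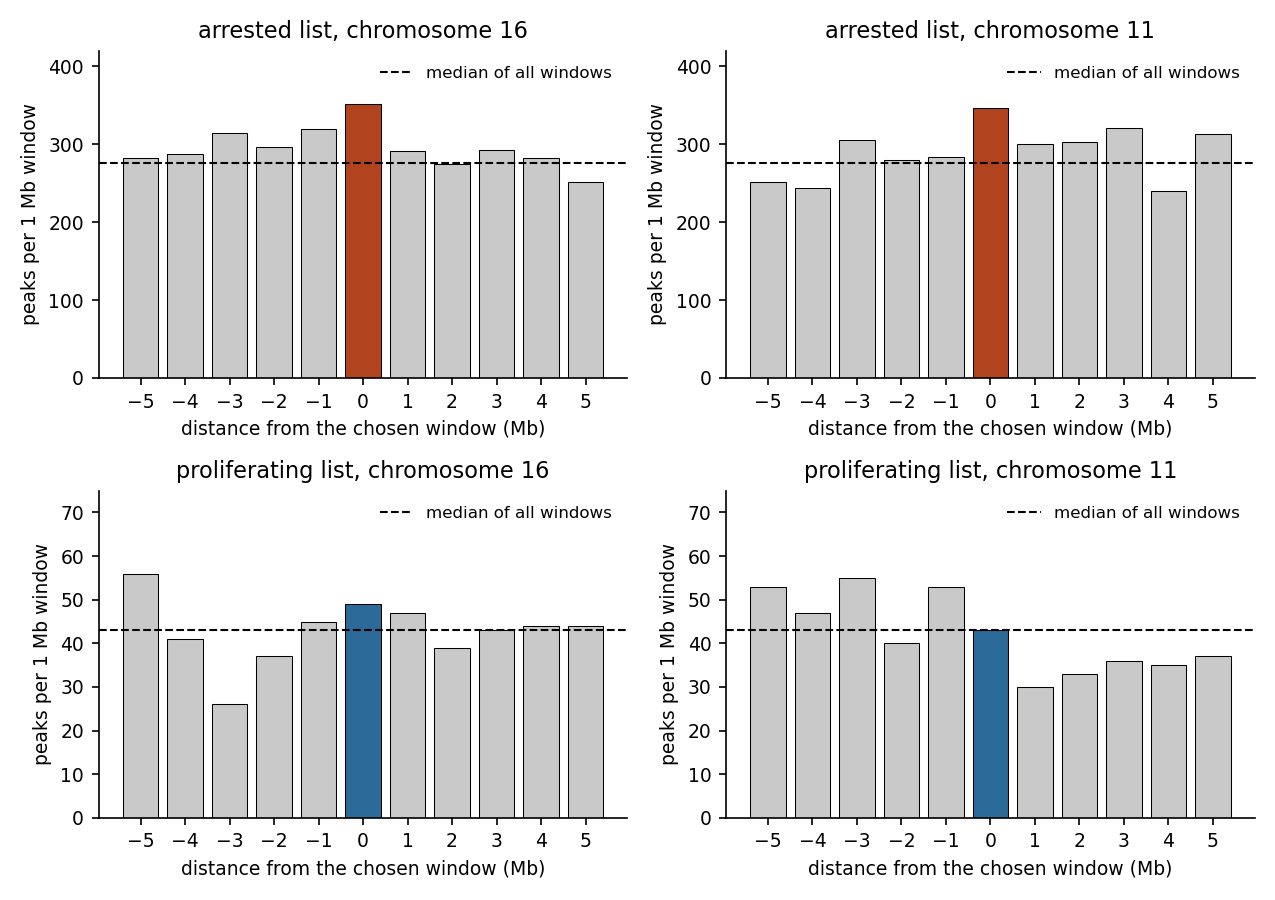
Peaks per 1 Mb window (vertical axes) against the distance from each chosen window in Mb, with the chosen window coloured and the dashed line at the median of all windows of the list. The arrested windows of 352 and 347 peaks stand above all 10 of their neighbours, while the proliferating windows of 49 and 43 lie within the range of theirs.

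The density in arrested cells was spread over the windows and did not come from 1 hot spot. Cut into 100 kb bins, the chromosome 16 window held from 25 to 45 arrested peaks per bin with a median of 35.5, and the 100 bins of its flanks held from 15 to 42 with a median of 29. In 9 of its 10 bins the number exceeded that median. The exception was the bin from 43100001 to 43200000, with 25 peaks, and the fullest bin was the last, from 43900001 to 44000000, with 45. The chromosome 11 window was more even, with 29 to 40 peaks per bin and a median of 35, and each of its 10 bins exceeded the flank median of 28. At a finer scale, 1 of 100 bins of 10 kb held no arrested peak start on chromosome 16 and 0 of 100 on chromosome 11, where flanking windows averaged 5.2 and 5.8 such bins. A window chosen for a high total will tend to have most bins above the flank median and few empty ones. These values therefore describe the spread and are no test.

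Of the positions tried, the place on the 1 Mb grid gave the highest arrested number on chromosome 11 but not on chromosome 16. The windows were chosen by their numbers on this grid, which favours the original place, so these values locate no border. Sliding the window in steps of 50 kb, up to 1 Mb either way, gave the highest chromosome 11 number at the original place, 347, and the lowest was 283. On chromosome 16 the highest number was 362, from 43550001 to 44550000, which is 550 kb to the right. Past the right border of the chromosome 16 window, the first 100 kb bin held 26 arrested peaks and the next 31, and the 4 bins from 44200001 to 44600000 held 35, 42, 36 and 35. With the whole grid moved by 0.5 Mb to the right, the chromosome 16 window held 359 peaks and again ranked 4 in the genome, and the chromosome 11 window fell to 308 and rank 164. Moved to the left, they held 311 and 314, at ranks 120 and 96.

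**Figure D2:**
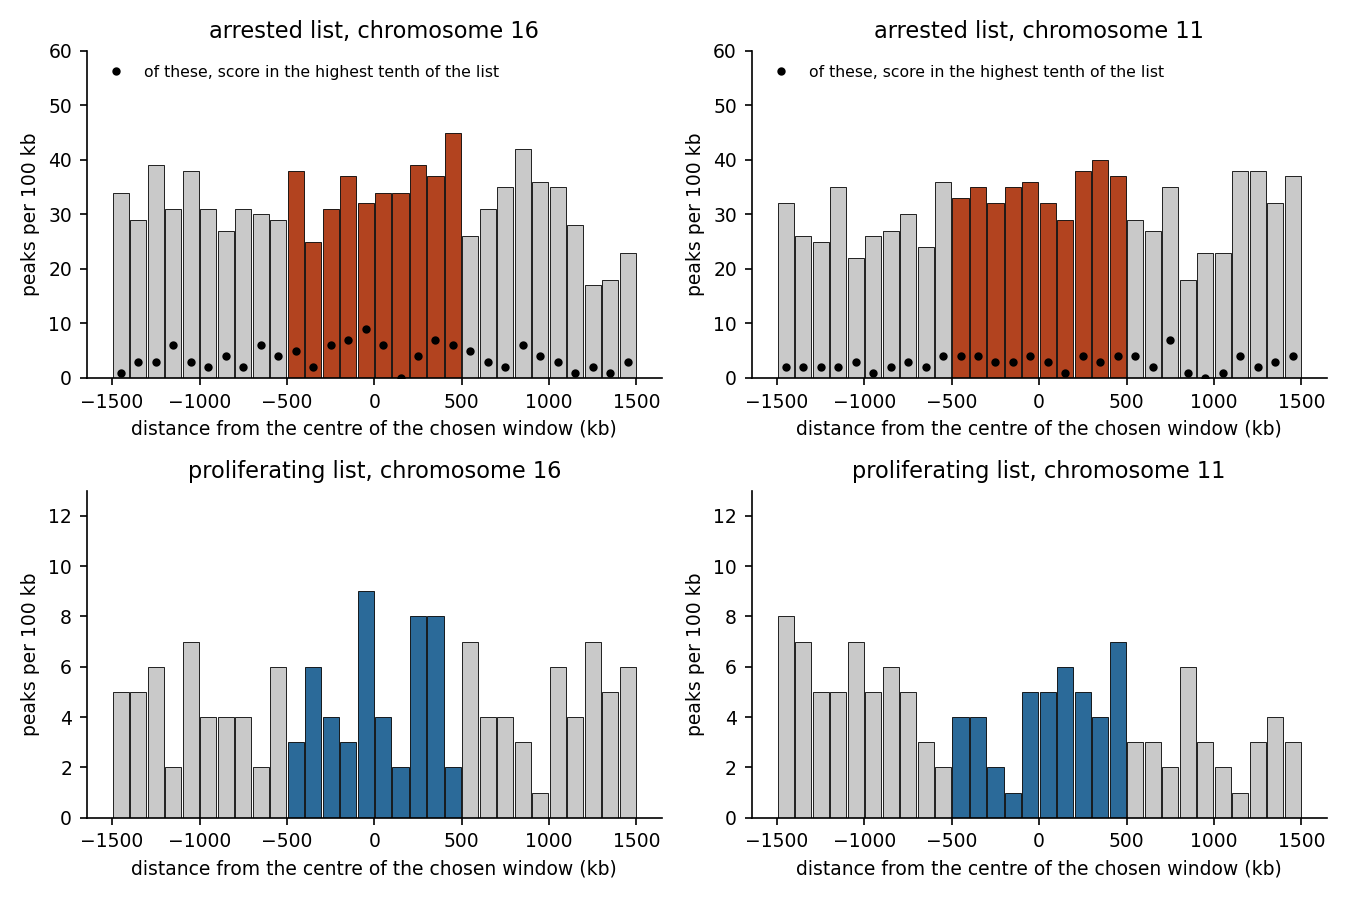
Peaks per 100 kb bin (vertical axes) against the distance from the centre of the chosen window in kb; coloured bars lie in the window, grey bars in the adjoining 1 Mb, and dots count the arrested peaks whose score was above the 90th percentile of their list. Arrested bars in the windows run from 25 to 45 on chromosome 16 and from 29 to 40 on chromosome 11, with no single bin carrying the density.

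By number of arrested peaks the windows ranked 4 and 5 of 2584, the latter in a tie. The window on chromosome 5 from 52 to 53 Mb, which is not among the members, also held 347 arrested peaks, with 40 proliferating ones. Chromosome 14 from 39 to 40 Mb followed with 344 and 25, and chromosome 13 from 12 to 13 Mb with 341 and 48. Just above lay chromosome 17 from 30 to 31 Mb with 369. The chromosome 5 window had 74.6 kb covered, a median width of 163 bp, as in both chosen windows, and 20.2% of peaks at least 300 bp wide. Its median score of 99.31 was lower than the 115.44 of the chromosome 16 window and the 104.47 of the chromosome 11 window.

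The 3 windows that were dense in both lists had larger median widths and lower median scores in the arrested list. An adjoining pair of windows on chromosome 4 held 370 arrested peaks each, with median widths of 411 and 408.5 bp and median scores of 41.9 and 39.2. Chromosome 17 from 30 to 31 Mb had a median width of 216 bp and a median score of 62.2. In the chromosome 16 and 11 windows the median width was 163 bp in each, and the median scores were 115 and 104. The windows on chromosome 4 covered 178 and 170 kb with peaks and that on chromosome 17 covered 112 kb, against 76.0 kb on chromosome 16 and 73.2 kb on chromosome 11. By covered bases the chosen windows ranked 52 and 120 of 2584, so they stood less far out by length than by number. Against their flanks the arrested covered length was 1.16 times as high in each, from means of 65.6 ± 4.63 and 63.2 ± 7.31 kb (SD, n = 10 windows). In the proliferating list the chromosome 16 window covered 8.02 kb, more than 9 of its 10 flanking windows. That was 1.19 times their mean of 6.75 ± 1.15 kb. The chromosome 11 window covered 7.43 kb, 1.09 times its flank mean of 6.79 ± 1.62 kb. Covered length thus did not set the arrested list apart on chromosome 16.

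**Figure D3:**
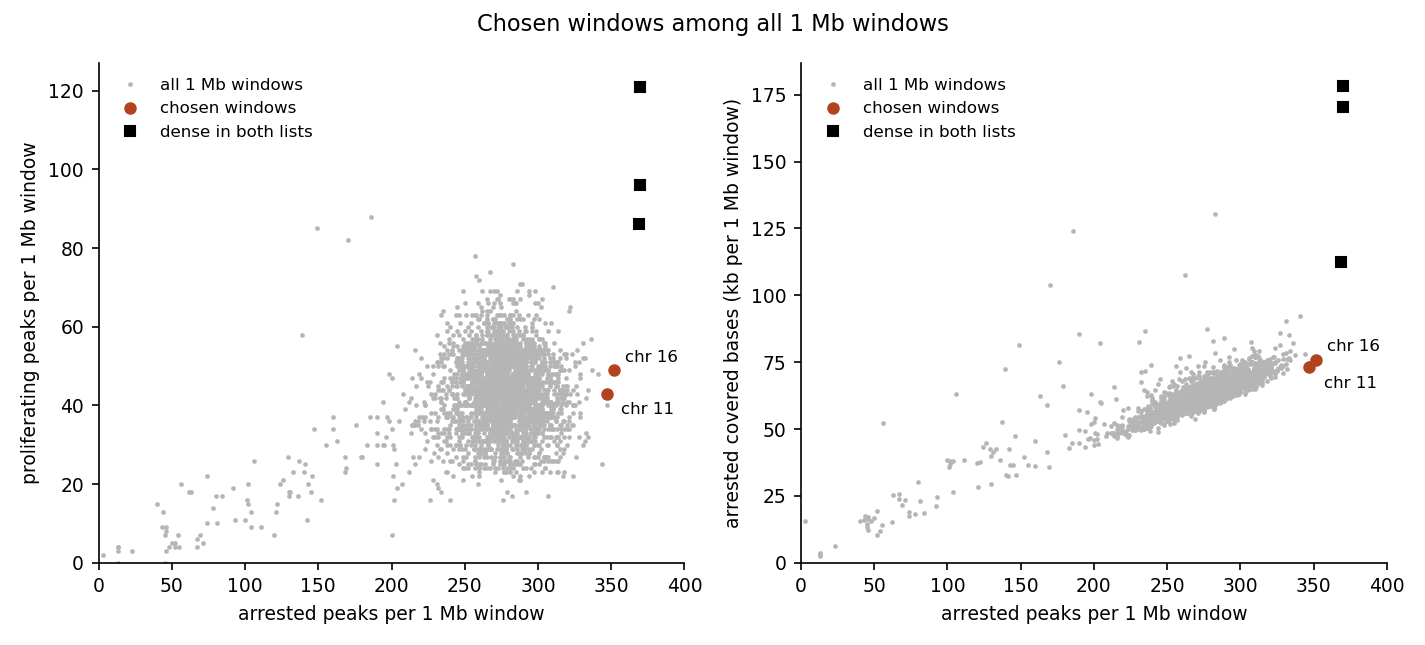
All 1 Mb windows of the genome, with arrested peaks per window on the horizontal axes and, on the vertical axes, proliferating peaks per window (left) and the bases covered by arrested peaks in kb (right). The chosen windows (round, coloured) lie at the right edge of the main cloud at 76.0 and 73.2 kb, apart from the windows dense in both lists (square), which reach 178 kb.

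Narrow peaks made up nearly all of the additional arrested peaks. On chromosome 16, 203 peaks were wider than 144 bp, the narrowest width in the arrested list, and below 200 bp, where flanking windows had from 122 to 168 with a mean of 148 ± 15.9 (SD, n = 10 windows). The difference of 55.5 peaks was 88.1% of the window's whole difference of 63. This was the highest number of such peaks in any window of the list. Such peaks were 57.7% of the arrested peaks in the chromosome 16 window, 55.9% in the chromosome 11 window and 50.4% in the whole list. On chromosome 11, 194 peaks had that width, the third highest number, against 123 to 171 in the flanks (SD 17.3, n = 10 windows), a ratio of 1.32 to their mean. The difference of 47 peaks was 74.7% of 62.9, and peaks of exactly 144 bp added 11.4 (48 against 36.6 ± 6.02). On chromosome 16 the 144 bp peaks numbered 38, against 36.2 ± 4.21.

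Peaks of at least 300 bp were about as frequent as in the surroundings. From 200 bp to below 300 bp the chromosome 16 window held 40 against 37 ± 4.85 in its flanks. The chromosome 11 window held 45 of that width against 37.1 ± 9.71, a ratio of 1.21, within its flanks' range of 20 to 52. From 300 bp to below 500 bp the chromosome 16 window held 62 against 60.4 ± 8.40 in its flanks, and the chromosome 11 window held 52 against 56.5 ± 9.03. At 500 bp or more they held 9 and 8, against 7.9 ± 4.51 and 6.9 ± 4.31. As a share of peaks, at least 300 bp was reached by 20.2% on chromosome 16 and 17.3% on chromosome 11, against 24.5% in the whole list. Only 34 of 2584 windows had a smaller share than the chromosome 11 window, but its left neighbour, from 35 to 36 Mb, was one of them at 15.5% with an ordinary 283 peaks. The widest arrested peaks were 696 bp on chromosome 16 (43778637 to 43779332, score 20.92) and 651 bp on chromosome 11 (36941769 to 36942419, score 88.91), and no peak in either window reached 1000 bp.

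The windows parted in their scores. The chromosome 16 window had a median score of 115.44, the highest of any window, a value held by 46 windows in all because scores repeat. Its flanking windows had medians from 88.79 to 106.34. The chromosome 11 window had a median of 104.47, within the 97.45 to 108.34 of its flanks. Scores above the 90th percentile of the list, which was 216.69, belonged to 52 of the chromosome 16 peaks (14.8%), more than in any other window. Its flanks held from 23 to 36 such peaks, with a mean of 29.6 ± 4.09 (SD, n = 10 windows), a ratio of 1.76. On chromosome 11 there were 33 (9.51%), against 18 to 39 in the flanks and a mean of 26.9 ± 6.52, and the window ranked 208. In the whole list 9.16% of peaks lay above that score, because scores repeat. On chromosome 11 the largest difference was in the class from 50 to below 100, mostly below the list median of 97.45. The window held 146 such peaks, the most of any window. Its flanks held 70 to 119, with a mean of 104 ± 13.7, and this class gave 41.6 of the window's 62.9 additional peaks. The window also held 178 peaks above the list median, at rank 7, against a mean of 145.5 ± 18.6 in the flanks. It held only 26 peaks below 50, fewer than any of its flanking windows, which ranged from 27 to 42. The chromosome 16 window held 113 peaks from 50 to below 100, within its flanks' range of 92 to 121.

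Width and score were linked in the arrested list, and the values of one should be read with those of the other. Over the whole list the median score was 97.45 for peaks of 144 bp and 124.76 for peaks over 144 and below 200 bp. It was 80.38 from 200 bp to below 300 bp, 54.68 from 300 bp to below 500 bp and 77.6 at 500 bp or more. Both classes below 200 bp thus had higher medians than the wider ones, but scores did not fall steadily with width. Within the class over 144 and below 200 bp, the chromosome 16 window still had a median score of 143.99 (quartiles 97.5 and 195), against 124.76 in its flanks (quartiles 88.8 and 185). The chromosome 11 window had 124.76, equal to its flanks. From 200 bp to below 300 bp the order was the opposite: 64.34 on chromosome 16 against 80.38 in its flanks, over 40 and 370 peaks, and 97.45 on chromosome 11 against 80.45, over 45 and 371 peaks.

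**Figure D4:**
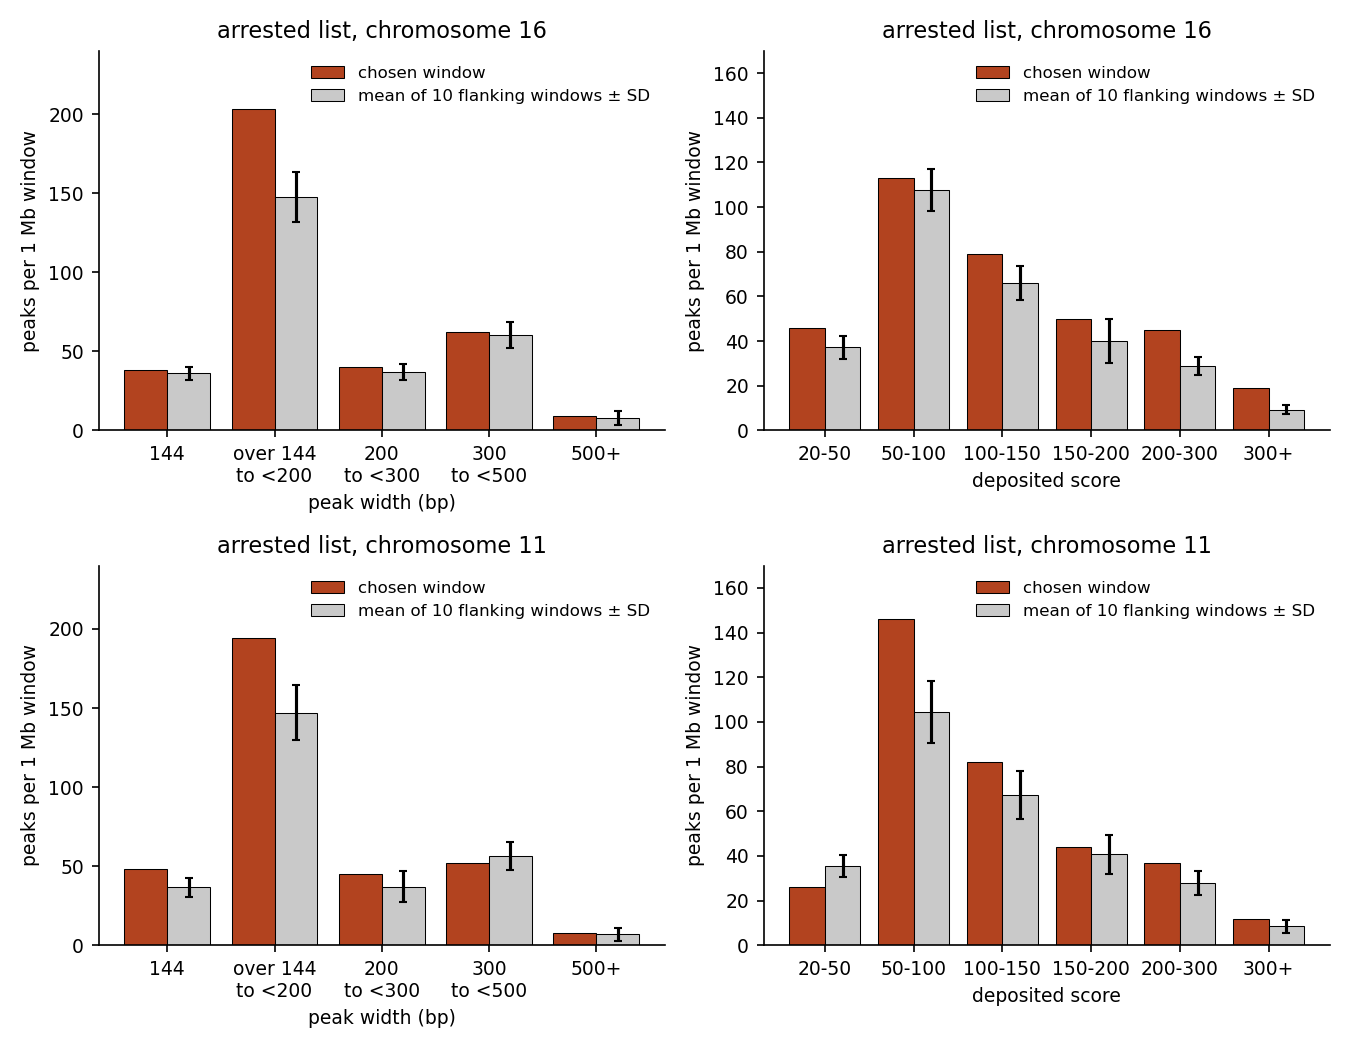
Arrested peaks per 1 Mb window (vertical axes) by peak width in bp (left) and by deposited score (right), for the chosen window and for the mean ± SD of its 10 flanking windows. The class over 144 and below 200 bp stands above the flanks in both windows (203 and 194 peaks), and the score class with the largest difference is 200 to 300 on chromosome 16 (45 against 28.7) and 50 to 100 on chromosome 11 (146 against 104).

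The highest-scoring arrested peaks of both windows shared 1 score. On chromosome 16 it was held by a 164 bp peak (43360250 to 43360413) and a 186 bp peak (43395100 to 43395285), and on chromosome 11 by a 159 bp peak (36401416 to 36401574) and a 181 bp peak (36960718 to 36960898). The score was 538.95, which 135 peaks of the list had, at rank 800. The next on chromosome 16 scored 498.52 (43275926 to 43276110), 419.89 (43908804 to 43908958) and 381.79 (43825424 to 43825569). The next on chromosome 11 scored 458.82 (36798407 to 36798567), 419.89 (36821430 to 36821595) and 381.79 (36938955 to 36939149). The leading 3 on chromosome 16 lay within 43275926 to 43395285, in a stretch whose bins were not the fullest. All 10 of these peaks were 146 to 195 bp wide. None overlapped a proliferating peak, but only 1.82% of the whole arrested list did, so this does not set them apart. The nearest proliferating peak lay from 795 to 30392 bp away. In the chromosome 16 window the peaks above the 90th percentile were uneven along its length: the bin from 43400001 to 43500000 held 9 of them among 32 peaks, and the bin from 43600001 to 43700000 held 0 among 34. On chromosome 11 each bin held from 1 to 4.

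Neighbouring arrested peaks stood closer together in the windows, as their number requires. The median distance from the end of one peak to the start of the next was 1638 bp on chromosome 16 (quartiles 780.5 and 3371, 351 distances), against 2236.5 bp in its flanks. On chromosome 11 it was 1750.5 bp (quartiles 868 and 3778, 346 distances), against 2226 bp in its flanks and 2303 bp in the whole list. Distances under 1000 bp made up 30.5% and 29.2% in the windows, 24.4% and 25.3% in the flanks and 25.1% in the list. Relative to the mean distance, the scatter was about the same inside and outside. The coefficient of variation of the distances was 1.02 on chromosome 16 and 0.954 on chromosome 11, against 1.002 and 1.054 in the flanks. Joining peaks at most 1000 bp apart gave 245 groups on chromosome 16 and 246 on chromosome 11. Of these, 22 and 23 held at least 3 peaks and together 75 (21.3%) and 76 (21.9%) of the windows' peaks, against 15.3% and 16.9% in the flanks. The largest group on chromosome 16 had 6 peaks between 43821672 and 43825569, the last of them the peak with a score of 381.79, and on chromosome 11 no group had more than 4. In the flanks of chromosomes 16 and 11, which span 10 windows each, the largest groups held 6 and 7 peaks. The longest distance without an arrested peak was 15760 bp on chromosome 16 (between 43131904 and 43147665) and 14047 bp on chromosome 11 (between 36695050 and 36709098), against 26519 and 57200 bp in the flanks.

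**Figure D5:**
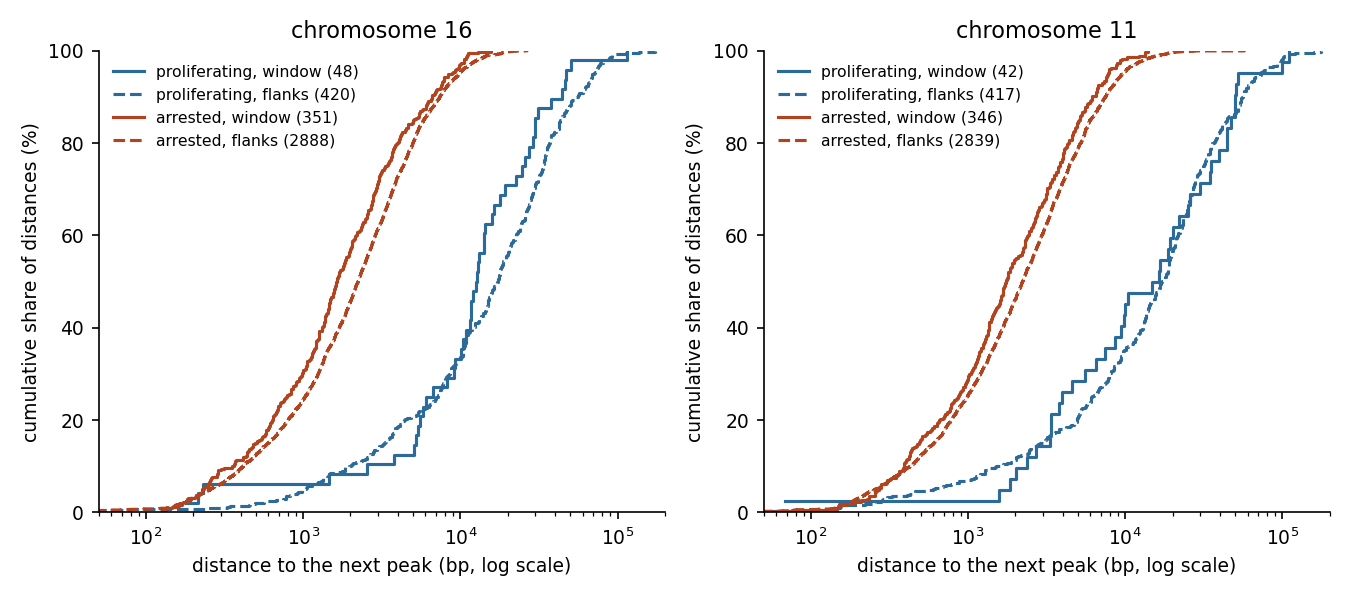
Cumulative share of distances from one peak to the next in percent (vertical axes) against the distance in bp on a log scale, for windows (solid) and flanks (dashed) of each list; the number of distances is in brackets. The solid arrested curves lie to the left of the dashed ones along most of the range, with medians of 1638 against 2236.5 bp and 1750.5 against 2226 bp, while the proliferating curves of chromosome 11 cross.

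Proliferating peaks in the chromosome 11 window had a larger median width than in any of its 10 flanking windows, and those on chromosome 16 did not. On chromosome 16 they were 110 to 278 bp wide with a median of 153 bp, and none reached 300 bp. The median score was 24.01 and the highest 49.7. On chromosome 11 they were 69 to 338 bp wide with a median of 171 bp (95% interval of the median 148 to 182), above the 148 to 161 bp of the flanking windows. Only 115 of 2582 windows had a larger median width. The median score was 24.13 and the highest 58.79. The highest-scoring proliferating peaks on chromosome 16 were a 250 bp peak with a score of 49.7 (43230552 to 43230801), a 172 bp peak with 39.42 (43559020 to 43559191) and a 180 bp peak with 38.09 (43454804 to 43454983). None of them overlapped an arrested peak, and in the whole proliferating list only 11.6% of peaks did. On chromosome 11 the highest-scoring ones were a 69 bp peak with 58.79 (36032445 to 36032513), an 80 bp peak with 49.28 (36087267 to 36087346) and a 338 bp peak with 44.56 (36957746 to 36958083). The first of these lay inside an arrested peak and the second was 47 bp from one.

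Distances between proliferating peaks had a median of 12679.5 bp on chromosome 16 (95% interval 10142 to 16288) against 17180 bp in the flanks, and 15550.5 bp on chromosome 11 (7425 to 25093) against 17203 bp. The longest stretch without a proliferating peak measured 115655 bp on chromosome 16, between 43559191 and 43674847, and it held 47 arrested peaks. On chromosome 11 it measured 110479 bp, between 36124803 and 36235283, and held 37. Over the whole chromosome 16 and 11 windows, arrested peaks averaged 35.2 and 34.7 per 100 kb. The numbers in these stretches, each longer than 100 kb, were thus not far from the averages of their windows.

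Few sites in the windows were called in both growth states. Of the 352 arrested peaks on chromosome 16, 5 overlapped a proliferating peak by at least 1 bp (1.42%, 95% Wilson interval 0.608 to 3.28), and of the 347 on chromosome 11, 4 did (1.15%, 0.449 to 2.93). The share in the whole arrested list was 1.82%, within both intervals. Seen from the other list, 5 of 49 proliferating peaks (10.2%, 4.44 to 21.8) and 4 of 43 (9.30%, 3.68 to 21.6) overlapped an arrested peak, and the share in the whole proliferating list was 11.6%, again within both intervals. These shares are near the background, and a difference from it was not detectable with so few peaks. The windows dense in both lists had larger shares, with 12.2% of the arrested peaks in the first of the chromosome 4 windows and 6.50% on chromosome 17. Those windows were picked for many peaks in both lists and have more bases covered, both of which favour overlap, so the contrast is no test. Intervals cover counting error only.

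Of the arrested peaks at the 9 shared sites, all but those scoring 59.52 and 20.87 lay above the list median of 97.45. In the whole arrested list 48.6% of peaks did, and with only 9 sites a difference from that share was not tested. Scores of the overlapping arrested peaks elsewhere in the list were not compared. On chromosome 16 the arrested peaks at 43066044 to 43066187, 43455156 to 43455326, 43730268 to 43730411 and 43783816 to 43783974 scored from 131.93 to 153.88, and that at 43496452 to 43496747 scored 236.19. The proliferating peaks at these sites scored from 24.01 to 28.19, and the overlaps were 39 to 139 bp long. On chromosome 11 the strongest shared site was an arrested peak of 280 bp at 36032330 to 36032609, score 261.48, which contained the window's highest-scoring proliferating peak. The others were at 36736497 to 36736863 (score 59.52), 36757090 to 36757238 (143.99) and 36825456 to 36825853 (20.87, close to the lowest score of the list). Of the proliferating peaks on chromosome 16, 18 of 49 (36.7%) were within 500 bp of an arrested peak, overlapping ones included, against 39.1% in the flanking windows. On chromosome 11 it was 20 of 43 (46.5%) against 31.7% in the flanking windows, and the share in the whole proliferating list was 35.2%. These differences were not tested. The choice of windows with many arrested peaks by itself favours a short distance to one.

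With 1 library per growth condition, a difference between the conditions at these windows has no replicate check. Genes, repeats, base composition and mappability of the windows were not analysed here, because no annotation or sequence of the mm9 build was used, so their part in the peak density was not tested.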

How the data were processed

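The samples were pRb immunoprecipitates from proliferating and arrested fibroblasts, grouped by their titles, with 1 deposited peak list each; the 2 inputs and a wild-type reference were not analysed here. Bowtie2, MACS2, HOMER and bedtools are named with build mm9 per the submitters' processing notes; no source used here gives their settings, how inputs were used or how duplicate reads were handled. The authors deposited a score for each peak, in the last of 5 columns without a header; its scale is not stated. The lists hold no read counts, so depth is unknown.

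Peaks were assigned to 1 Mb windows by start. Coordinates are printed 1-based. Flanks were the 5 windows on each side. Covered length is the sum of peak widths, as peaks of a list never overlapped. Overlap meant at least 1 shared bp. Intervals are 95% Wilson intervals for shares (converted to ratios for window against flanks) and order-statistic intervals for medians. No test was made, because each group had 1 library and the windows were chosen by these lists. The windows, measures, width and score classes were chosen with earlier results of these data known. Named peaks were, per window, the 5 highest-scoring arrested and 3 highest-scoring proliferating ones (ties by position), the widest, those beside the longest empty stretch, and shared ones. Alternatives were stricter lists, joined peaks, moved windows, other flanks and other overlaps. Python 3.11.15, numpy 2.4.6, pandas 2.3.3, SciPy 1.17.1 and matplotlib 3.10.9 were used, and the code was tested on simulated lists.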

Additional observations from a re-analysis of the deposited data

How the results depend on the processing

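No paired analysis was possible because no group had a second library, which also leaves no replicate to omit. Of 90 alternative values, 62 lay inside the interval around the main one (for covered bases, within 1 SD of the flanking windows), 27 moved and 1 turned. The arrested number and covered length of the windows exceeded the flank means (ratios above 1) in each of the 26 alternatives run on them. The windows were chosen by their arrested number, and these alternatives draw on the same list. Ratios above 1 were therefore favoured by the choice and are no independent support. The number over the flank mean moved to 1.74 on chromosome 16 in the upper 10% by score, and the windows moved by 0.5 Mb gave 1.06 on chromosome 16 (left) and 1.06 on chromosome 11 (right), so the 1.22 depends on the place of the grid. Arrested covered length moved to 1.24 (chromosome 16, upper 50% by score) and 1.28 (chromosome 11, score of at least 50). In the upper 50% by score the arrested median widths were 160 and 159 bp on chromosomes 16 and 11, and the median distances 3434 and 3742 bp (arrested) and 25899.5 and 28491 bp (proliferating), since fewer peaks remain by construction. Joining peaks within 1000 bp gave arrested widths of 241 and 198 bp and distances of 2593.5 and 2752 bp. Among peaks of at least the list's median width the arrested median scores were 80.38 and 92.46, so the order of the windows by score turned. Requiring 50% of the arrested peak to be overlapped gave shares of 0.568% and 0%, and centres within 500 bp gave 4.55% and 4.32% (arrested) and 28.6% and 34.9% (proliferating). For proliferating peaks, few were left by stricter lists: the upper 10% gave a ratio of 0.667 from 3 peaks on chromosome 16, and a score of at least 50 gave 0 by number and by covered length there, from 0 peaks, and 1.67 and 0.574 on chromosome 11, from 1 peak. Medians were not computed from so few. What caused the remaining shifts was not tested. Without read depth in the lists, scores cannot be set beside coverage.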
